A study of Mus musculus with 6 samples.

Results

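The 10 genes described here belong to mechanosensing and the YAP/TEAD pathway. Their RNA levels were measured in mouse osteoblasts, the bone-forming cells. The genes were taken by name from the table of all genes, after transcript values had been summed per gene symbol. All 10 were found among 19679 gene symbols. Ctgf and Cyr61 are the table's names for Ccn2 and Ccn1. RNA was sequenced from osteoblasts of the mandible, the lower jaw, and of the tibia, the shin bone, with 3 libraries from each site. All mice carried the transgene Col1a1*2,3-GFP and were at postnatal day 9, and the GFP-positive cells of each bone were sorted after collagenase digestion. GFP in this line reports activity of a Col1a1 promoter fragment, so the sort takes cells in which that promoter is on, at whatever stage. Each dissection pooled bones of about 50 mice and gave 1 library per site, so spread between libraries, and each p-value, is about pools. Wherever 3 values are given for a site, they are those of dissections 1, 2 and 3, in that order. The study set out to describe the transcription factors of jaw osteoblasts against those of the tibia.

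Piezo1 is an ion channel that opens when the membrane is stretched. YAP, encoded by Yap1, and its relative TAZ, encoded by Wwtr1, are coactivators that the kinases of the Hippo pathway keep out of the nucleus. On stiff matrix or under cytoskeletal tension they enter the nucleus and bind the TEAD factors, which recognise DNA. Ctgf, Cyr61, Ankrd1 and Amotl2 are widely used as readouts of that complex, and Amotl2 encodes an angiomotin protein that in turn holds YAP in the cytoplasm. In bone, Piezo1 in osteoblast-lineage cells is needed for the response of the skeleton to load, and Yap1 and Wwtr1 take part in bone formation.

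Promoter sequence from RefSeq (GRCm38.p6) was held for 8 of the 10 genes, in 11 windows that run from 250 bases before a transcription start to 50 after it. The TEAD motif GGAATG, read on both strands as GGAATG or CATTCC, occurred in at least 1 window of 6 of these genes: Cyr61, Ankrd1, Amotl2, Yap1, Wwtr1 and Tead3. It occurred in 8 of the 11 windows of these genes and in 14.7% of all 32851 windows of 300 bases, and the windows of Wwtr1 and of Tead3 overlap each other. The windows of Piezo1 and Tead2 did not hold these letters. The CArG box, the motif of serum response factor, was in 1.63% of all windows and in none of these genes' windows. The following 4 windows are shown because 3 of them belong to the readout genes and the fourth to Yap1, whose RPKM at the sites did not overlap. Capitals mark the motif.
Cyr61, chr3:145649936-145650235, minus strand: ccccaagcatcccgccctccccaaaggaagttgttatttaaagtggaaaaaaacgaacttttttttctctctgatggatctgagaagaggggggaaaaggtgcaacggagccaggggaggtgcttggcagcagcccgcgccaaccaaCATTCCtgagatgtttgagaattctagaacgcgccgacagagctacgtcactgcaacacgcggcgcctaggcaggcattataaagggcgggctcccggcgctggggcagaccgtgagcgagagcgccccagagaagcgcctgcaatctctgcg
Ankrd1, chr19:36119795-36120094, minus strand: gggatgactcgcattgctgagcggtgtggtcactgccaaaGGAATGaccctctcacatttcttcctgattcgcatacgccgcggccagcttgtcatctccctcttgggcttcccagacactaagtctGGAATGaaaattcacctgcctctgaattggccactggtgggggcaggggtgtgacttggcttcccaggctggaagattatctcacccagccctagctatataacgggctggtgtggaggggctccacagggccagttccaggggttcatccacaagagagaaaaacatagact
Amotl2, chr9:102717554-102717853, plus strand: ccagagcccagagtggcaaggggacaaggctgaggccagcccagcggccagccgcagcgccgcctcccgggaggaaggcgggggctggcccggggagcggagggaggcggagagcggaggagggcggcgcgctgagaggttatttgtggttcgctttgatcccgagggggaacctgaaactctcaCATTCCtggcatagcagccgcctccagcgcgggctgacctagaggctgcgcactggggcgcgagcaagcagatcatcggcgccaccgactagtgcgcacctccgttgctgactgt
Yap1, chr9:8004547-8004846, minus strand: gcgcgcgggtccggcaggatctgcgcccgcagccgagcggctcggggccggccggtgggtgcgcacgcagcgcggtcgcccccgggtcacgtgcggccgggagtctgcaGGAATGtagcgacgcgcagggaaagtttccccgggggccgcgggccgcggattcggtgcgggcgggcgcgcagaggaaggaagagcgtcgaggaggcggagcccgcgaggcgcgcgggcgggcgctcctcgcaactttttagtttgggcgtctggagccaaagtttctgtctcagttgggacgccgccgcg
In Cyr61 the motif began 103 bases before the start, with TATAAA 25 bases before it. Ankrd1 held the motif at 210 and 123 bases before the start, Amotl2 at 65 and Yap1 at 141. These are matches of letters, and binding was not measured.

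Read totals estimated from the steps of low values ran from 49.0 to 57.8 M in the mandible and from 49.1 to 51.8 M in the tibia, and 10765 to 11249 genes reached 1 RPKM, a read density scaled by transcript length and library size. The first principal component, with 60.9% of the variance, set both libraries of dissection 3 apart from the other 4. Summed haemoglobin was 0.717% to 4.51% of RPKM in mandible libraries and 1.87% to 9.78% in tibia libraries, highest in dissection 3 at both sites. The 8 osteoblast markers, Col1a1 and Bglap among them, summed to 53627 to 63542 RPKM in the mandible, against 57744 to 66216 RPKM in the tibia, and none was at 0. Markers of enamel-forming ameloblasts summed to 513 to 2183 RPKM in the mandible, against 6.63 to 9.79 RPKM in the tibia. Chondrocyte markers (91.7 to 182 against 20.9 to 44.8 RPKM) were also higher in the mandible without overlap. So were those of Schwann cells (50.4 to 82.2 against 8.30 to 23.4), epithelial cells (10.6 to 23.1 against 3.87 to 4.66) and macrophages and osteoclasts (756 to 972 against 713 to 751). Endothelial markers were lower without overlap. The part of these cells in the members' values was not tested. Over the 12752 genes tested, the median log2 fold change, mandible minus tibia on log2(RPKM + 0.5), was 0.12, and it was -0.010 after quantile normalization.

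Cyr61 stood far above the other members at both sites, and Ankrd1 was close to the floor. Cyr61 averaged 440.3 ± 190.1 RPKM in the mandible, against 316.6 ± 191.4 RPKM in the tibia (SD, n = 3 each), above 98.6% of the genes tested by mean level. Ctgf followed at 15.1 ± 1.27 RPKM in the mandible, against 14.6 ± 1.28 RPKM in the tibia, and its range did not overlap that of Cyr61 or of the next gene at either site. Below it in mean RPKM came Amotl2, Piezo1, Tead2 and Yap1 in the mandible and Piezo1, Amotl2, Tead2 and Yap1 in the tibia. Neighbours in that run overlapped, so their order was within the spread of the libraries. Wwtr1, Tead3 and Tead1 followed at both sites, with Yap1 and Wwtr1 overlapping in the tibia but not in the mandible, and Tead3 and Tead1 overlapping at both. Ankrd1 was lowest, at 0.295 ± 0.315 RPKM in the mandible, against 0.355 ± 0.370 RPKM in the tibia.

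**Figure D1:**
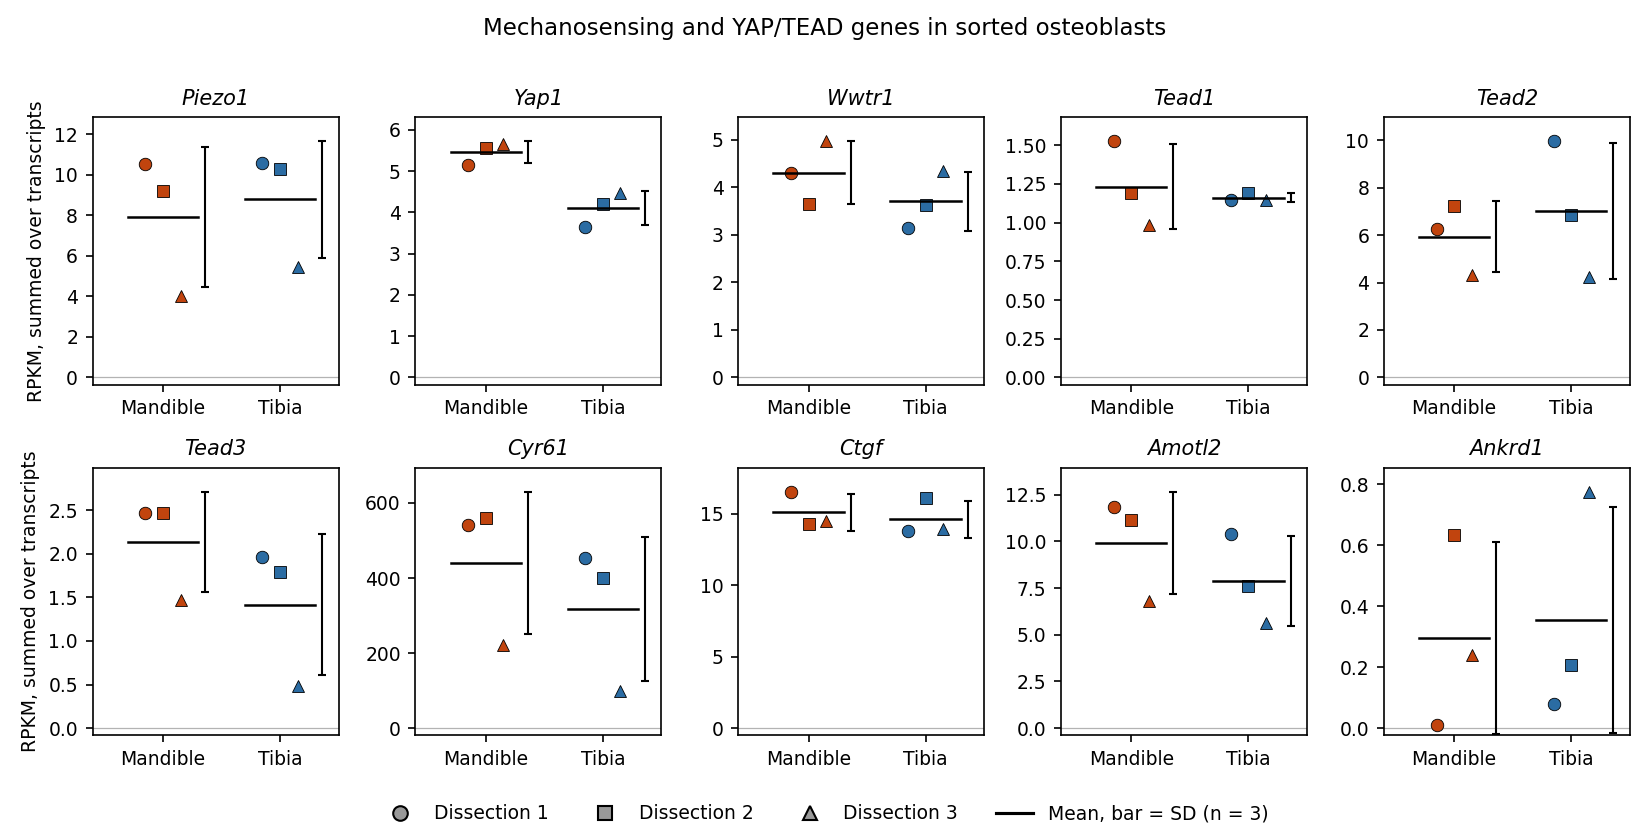
RPKM of the 10 genes in each library (vertical axes, linear), mandible left and tibia right, with the mean as a line and the SD as a bar (n = 3). Symbols give the dissection: Yap1 is the gene whose 3 mandible points all lie above the 3 tibia points, and the triangles of Cyr61 lie lowest at both sites.

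No member passed the test between sites. Of the 10 genes, 9 reached a mean of 0.5 RPKM and were tested. In limma with site alone, 0 of 9 had an adjusted p under 0.05 and 0 of 9 had an unadjusted p under 0.05. Of all 12752 genes 124 passed (0.972%), of which those higher in the mandible were 0.87% and those lower 0.102% of the genes tested. The share of all genes at an unadjusted p under 0.05 was 8.99%. With the dissection as a block, limma again passed 0 of 9, against 6.49% of all genes (4.44% higher and 2.05% lower), and 4 had an unadjusted p under 0.05, namely Cyr61, Yap1, Tead3 and Amotl2, where 26.5% of all genes did. The lowest adjusted p among them was 0.0865, for Cyr61. The count of members called was also 0 without both libraries of dissection 3. The median log2 fold change of the 9 was 0.19, against 0.12 for all genes tested.

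**Figure D2:**
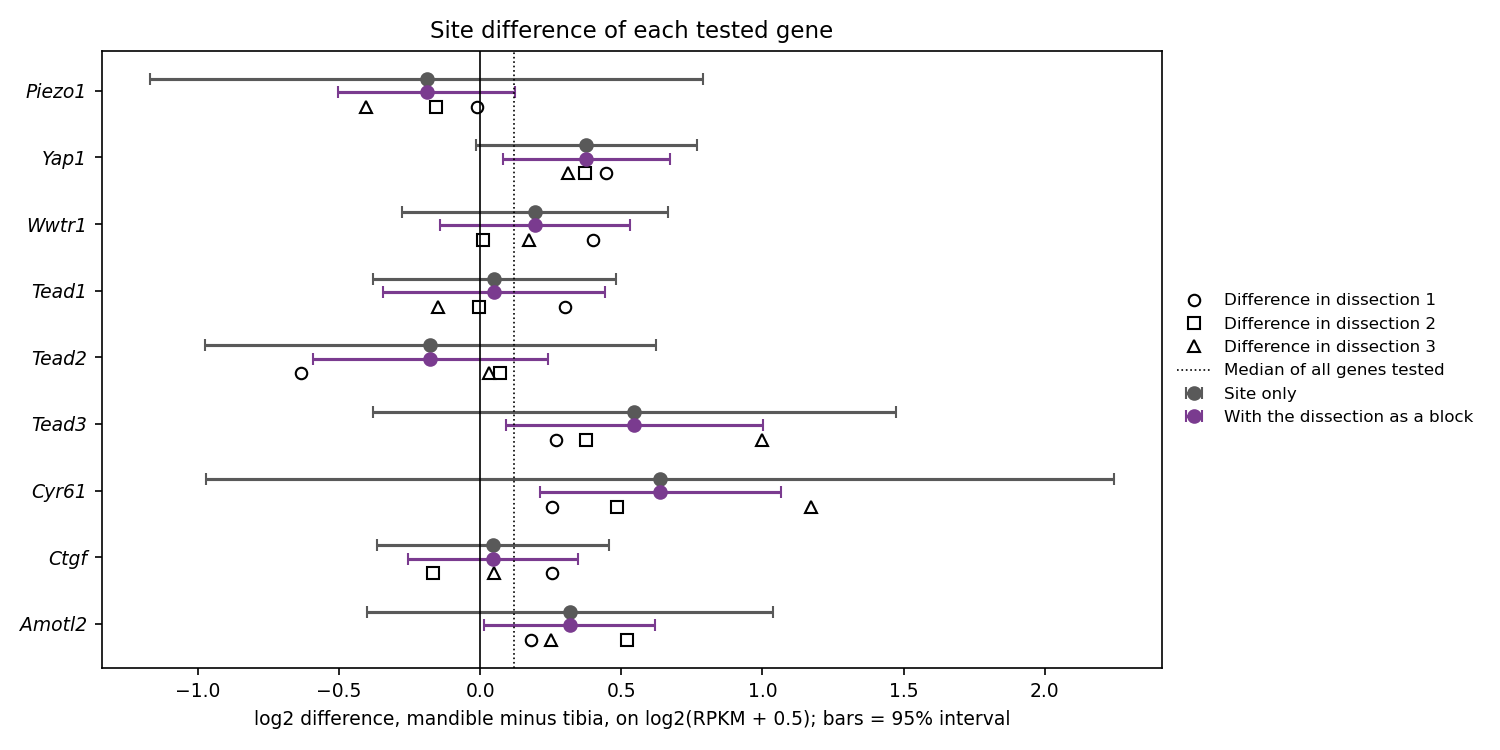
Log2 difference, mandible minus tibia (horizontal axis, on log2(RPKM + 0.5)), of the 9 tested genes, with 95% intervals from limma with site alone (grey) and with the dissection as a block (purple). Open symbols are the differences within each dissection, and the dotted line is the median of all genes at 0.12. The grey intervals all include 0. The purple intervals of Cyr61, Yap1, Tead3 and Amotl2 lie above 0, though none of these genes passed after adjustment over all genes.

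Piezo1, the stretch-gated channel on chromosome 8 at 122481698 to 122551329, was at 10.5, 9.21 and 4.01 RPKM in the mandible libraries, against 10.6, 10.3 and 5.47 RPKM in those of the tibia. The sites overlapped, and library 3 was the lowest of each. Its log2 fold change was -0.19 (SE 0.41, 95% interval -1.17 to 0.79, limma adjusted p = 0.968). With the block the SE was 0.13 and the 95% interval -0.50 to 0.12 (limma adjusted p = 0.399). Within dissections 1, 2 and 3 the difference was -0.010, -0.15 and -0.40, below 0 in 3 of 3, as it was for 13.4% of all genes tested. Without mandible library 3, but with tibia library 3 kept, the fold change turned to 0.21. Without both libraries of dissection 3 it was -0.082. It was -0.32 with quantile normalization and also with median-of-ratios scaling. Endothelial cells also express Piezo1, and the 8 endothelial markers summed to 71.6 to 96.8 RPKM in the mandible, against 120.1 to 260.4 RPKM in the tibia, with none at 0. Their part in the Piezo1 values was not tested. In such bulk samples, fewer cells of a type and less RNA per cell cannot be told apart.

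Yap1, on chromosome 9 at 7931999 to 8004638, was at 5.16, 5.57 and 5.67 RPKM in the mandible libraries, against 3.65, 4.19 and 4.47 RPKM in those of the tibia. All mandible values lay above all tibia values, a pattern that 12.6% of all genes tested shared. No other member lacked overlap, and none lay wholly below, as 3.05% of all genes did. It held after median-of-ratios scaling, with mandible values of 5.02, 5.30 and 5.13 and tibia values of 3.88, 4.58 and 4.30 RPKM. The log2 fold change was 0.38 (SE 0.16, 95% interval -0.014 to 0.77), and it did not pass (limma adjusted p = 0.584). With the block the SE was 0.12 and the 95% interval 0.079 to 0.67, and Yap1 again did not pass (limma adjusted p = 0.120). Within dissections the difference was 0.45, 0.37 and 0.31, above 0 in 3 of 3, as for 36.8% of all genes tested. With median-of-ratios scaling the fold change was 0.25.

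Wwtr1, the gene of TAZ on chromosome 3 at 57455644 to 57575910, was at 4.29, 3.65 and 4.98 RPKM in the mandible libraries, against 3.14, 3.62 and 4.35 RPKM in those of the tibia. The sites overlapped, and each mandible library lay above the tibia library of its own dissection, by 0.40, 0.010 and 0.17 on the log2 scale. Its log2 fold change was 0.19 (SE 0.20, 95% interval -0.28 to 0.67, limma adjusted p = 0.916). It ranged from 0.095 without tibia library 1 or mandible library 3 to 0.30 without tibia library 3 or mandible library 2. It was 0.064 with quantile normalization and 0.073 with median-of-ratios scaling. Yap1 and Wwtr1 together came to 9.77 ± 0.768 RPKM in the mandible, against 7.81 ± 1.02 RPKM in the tibia (SD, n = 3 each; exact permutation test, two-sided, p = 0.1, the smallest that 3 against 3 allows, and 0.267 adjusted over 8 tests of shares, ratios and sums). Yap1 made up 54.6%, 60.4% and 53.3% of that sum in the mandible, against 53.8%, 53.7% and 50.7% in the tibia. The sites overlapped in this share (exact permutation test, two-sided, p = 0.3; adjusted 0.6).

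Among the TEAD factors Tead2 was the most abundant in each of the 6 libraries. Tead2, on chromosome 7 at 45215792 to 45233468, was at 6.25, 7.24 and 4.33 RPKM in the mandible libraries, against 9.97, 6.86 and 4.22 RPKM in those of the tibia. The sites overlapped, with tibia library 1 the highest (log2 fold change -0.18, SE 0.34, 95% interval -0.97 to 0.62, limma adjusted p = 0.966). Taking the transcript with the highest mean over the 6 libraries in place of the sum turned the sign, to 0.27. That transcript, NM_011565, made up 45.6% of the Tead2 RPKM in mandible library 3, against 9.93% in tibia library 3.

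Tead3, on chromosome 17 at 28331671 to 28350805, was at 2.47, 2.47 and 1.47 RPKM in the mandible, against 1.96, 1.79 and 0.487 RPKM in the tibia. Mandible library 3 lay below tibia libraries 1 and 2, so the sites overlapped, while within dissections the difference was 0.27, 0.37 and 1.0 on the log2 scale. The log2 fold change was 0.55 (SE 0.39, 95% interval -0.38 to 1.47, limma adjusted p = 0.829), and it was 0.12 without tibia library 3 and 0.32 without both libraries of dissection 3. Tead1, on chromosome 7 at 112679356 to 112906784, was at 1.53, 1.19 and 0.983 RPKM in the mandible, against 1.15, 1.19 and 1.15 RPKM in the tibia (log2 fold change 0.050, SE 0.18, 95% interval -0.38 to 0.48, limma adjusted p = 0.981), with the tibia values inside the mandible range. The sign of Tead1 turned with quantile normalization, to -0.066.

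In the make-up of the TEAD pool by summed transcripts, the shares of Tead2 and Tead3 did not overlap between the sites. Tead3 took 24.0%, 22.5% and 21.3% of the summed RPKM of Tead1 to Tead4 in the mandible libraries, against 14.9%, 17.8% and 8.21% in those of the tibia. Tead2 took 60.7%, 65.8% and 62.7% in the mandible, against 75.6%, 68.1% and 71.1% in the tibia. The mean differences of Tead3 and Tead2 were 8.96 and -8.53 percentage points. Each had p = 0.1 in a two-sided exact permutation test, the smallest this design allows, and 0.267 adjusted over the 8 tests, so neither passed. With the highest transcript of each gene in place of the sum, the Tead2 difference was -0.025 points (exact permutation test, two-sided, p = 1.0) and the Tead3 difference 9.27 points (p = 0.2), so the Tead2 value depends on that choice. Tead1 averaged 13.3% ± 2.18 in the mandible, against 13.3% ± 5.45 in the tibia, and Tead4, which was not a member, averaged 1.03% ± 0.644 and 1.49% ± 0.765 (SD, n = 3 each). The pool as a whole was at 9.40 ± 2.19 RPKM in the mandible, against 9.73 ± 3.64 RPKM in the tibia.

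**Figure D3:**
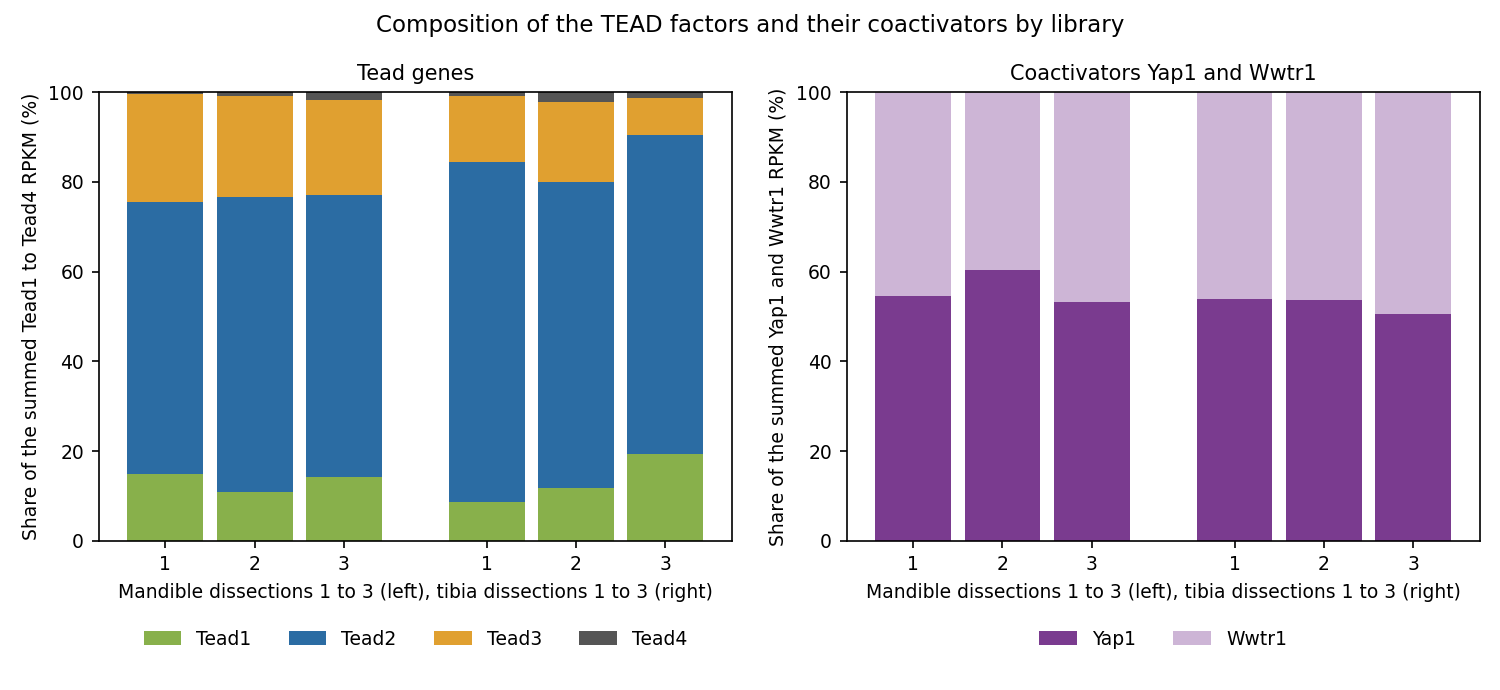
Left, shares of Tead1 to Tead4 in their summed RPKM (vertical axis, %) in each library. Right, shares of Yap1 and Wwtr1 in their sum, with mandible libraries left of tibia libraries in both panels. The Tead3 band spans 21.3% to 24.0% in the mandible, against 8.21% to 17.8% in the tibia.

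Cyr61, a secreted matricellular protein gene on chromosome 3 at 145646971 to 145649985, was at 540.3, 559.6 and 221.0 RPKM in the mandible libraries, against 452.6, 399.7 and 97.7 RPKM in those of the tibia. Library 3 was lowest at each site, and mandible library 3 lay below tibia libraries 1 and 2, so the sites overlapped. Each mandible library lay above the tibia library of its dissection, by 0.26, 0.48 and 1.17 on the log2 scale. Cyr61 thus had a log2 fold change of 0.64 (SE 0.68, 95% interval -0.97 to 2.25, limma adjusted p = 0.923). With the block the SE was 0.18 and the 95% interval 0.21 to 1.06, and Cyr61 did not pass (limma adjusted p = 0.0865). The fold change was 0.37 without both libraries of dissection 3. Leaving out 1 library of that pair and keeping the other gave 1.08 without mandible library 3 and -0.067 without tibia library 3.

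Ctgf, a matricellular protein gene of the same family on chromosome 10 at 24595442 to 24598683, was at 16.6, 14.3 and 14.5 RPKM in the mandible libraries, against 13.8, 16.1 and 14.0 RPKM in those of the tibia. The values of both sites lay within 13.8 to 16.6 RPKM and overlapped. Its log2 fold change was 0.045 (SE 0.17, 95% interval -0.36 to 0.45, limma adjusted p = 0.981), but -0.091 with quantile normalization and -0.088 with median-of-ratios scaling. Among the tested members it had the narrowest interval after Yap1. Cyr61 exceeded Ctgf in RPKM by factors of 32.6, 39.2 and 15.3 in the mandible, against 32.7, 24.8 and 7.0 in the tibia, with overlap of the sites (exact permutation test, two-sided, p = 0.6; adjusted 0.8).

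Amotl2, on chromosome 9 at 102717091 to 102733418, was at 11.9, 11.1 and 6.80 RPKM in the mandible libraries, against 10.4, 7.61 and 5.63 RPKM in those of the tibia. The sites overlapped, and within dissections the difference was 0.18, 0.52 and 0.25 on the log2 scale. For Amotl2 the log2 fold change was 0.32 (SE 0.30, 95% interval -0.40 to 1.04, limma adjusted p = 0.905), with 0.56 without mandible library 3, 0.53 without tibia library 1, 0.22 without mandible library 2, 0.18 without mandible library 1 and 0.11 without tibia library 3. The fold change was 0.21 with quantile normalization and 0.19 with median-of-ratios scaling. With the block and no such scaling the SE was 0.13 and the 95% interval 0.014 to 0.62, and Amotl2 did not pass (limma adjusted p = 0.174).

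Ankrd1, a nuclear ankyrin-repeat protein gene of striated muscle on chromosome 19 at 36111965 to 36119844, did not reach the filter. It was at 0.0114, 0.634 and 0.241 RPKM in the mandible libraries, against 0.0807, 0.207 and 0.776 RPKM in those of the tibia. By the estimated read totals these stand for about 1.13, 74.0 and 25.0 reads in the mandible, against 8.00, 21.7 and 80.7 reads in the tibia. The libraries of each site spread widely, and the sites overlapped. Without the filter its log2 fold change was -0.10 (SE 0.40, limma adjusted p = 0.971). The 10 skeletal muscle markers summed to 10.6, 13.8 and 36.7 RPKM in the mandible, against 6.14, 10.02 and 41.4 RPKM in the tibia, with Myh1, Myh3, Myh4 and Myog at 0 in at least 1 library. Their part in the Ankrd1 values was not tested.

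The third dissection, which the labels name in another form than the first 2, stood apart for several members. Relative to the mean of libraries 1 and 2 of the same site, Cyr61 in library 3 was at -1.31 in the mandible, against -2.12 in the tibia on the log2 scale. It was the 1 member more than 1 unit lower at both sites, as were 3.73% of all genes tested (6.42% in the mandible, 7.88% in the tibia). Piezo1 stood at -1.20 in the mandible, against -0.88 in the tibia, and Tead3 at -0.59 in the mandible, against -1.27 in the tibia. Tead2, Amotl2 and Tead1 were also below 0 at both sites, with Tead1 at -0.32 in the mandible, against -0.021 in the tibia. Ctgf was at -0.084 in the mandible, against -0.093 in the tibia. Wwtr1 lay above 0, at 0.30 in the mandible, against 0.33 in the tibia, as did Yap1, at 0.074 and 0.17. Of the 9 tested members 7 were below 0 at each site, where 45.8% of all genes were in the mandible and 41.2% in the tibia. The median over all genes was 0.067 in the mandible, against 0.15 in the tibia. With 1 library against 2 per site these are values with no test.

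**Figure D4:**
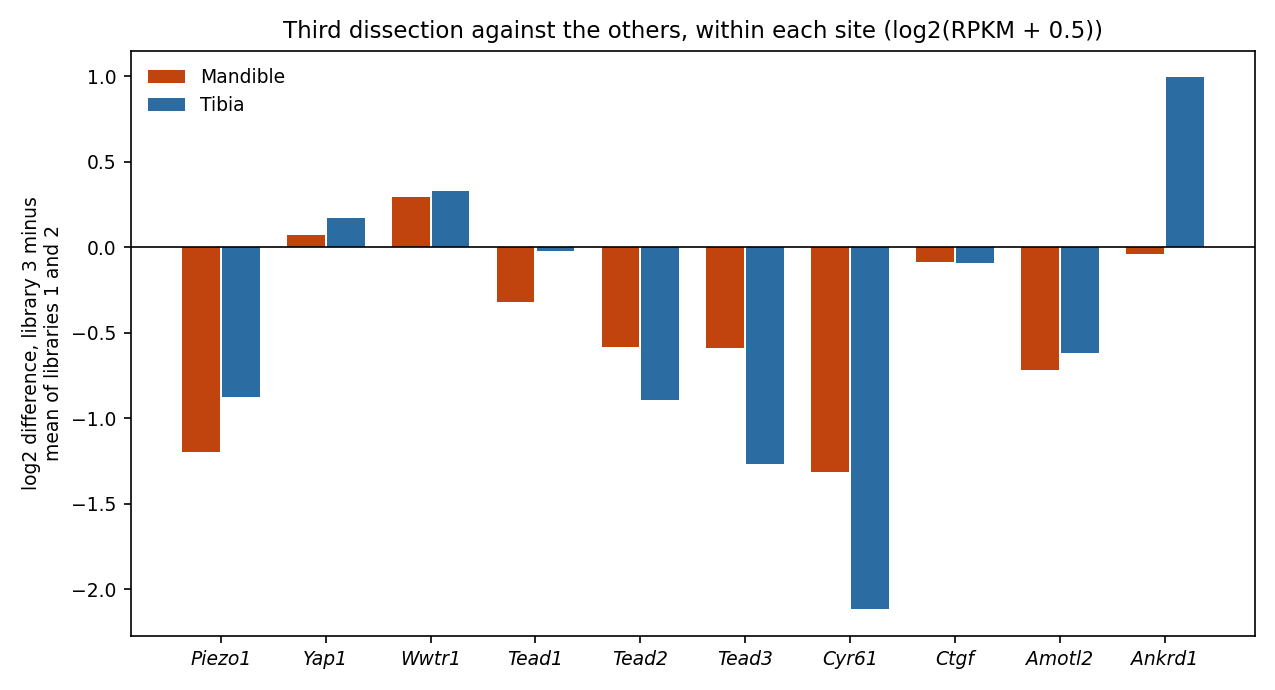
Log2 difference of library 3 from the mean of libraries 1 and 2 of the same site (vertical axis, log2(RPKM + 0.5)) for each of the 10 genes, mandible bars left of tibia bars. Cyr61 reaches -1.31 in the mandible, against -2.12 in the tibia, while Ctgf stays at -0.084 and -0.093.

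In dissection 3 most of the stress genes were lower, and markers of red blood cells were higher. The 15 dissociation and immediate early genes, which respond to tissue digestion, had median differences of -0.63 in the mandible, against -0.25 in the tibia, with 11 and 10 of 15 below 0, where 45.8% of all genes were in the mandible and 41.2% in the tibia. Hspa1a, a heat shock chaperone gene, was at 333.3, 417.6 and 35.2 RPKM in the mandible libraries, against 212.3, 210.2 and 24.6 RPKM in those of the tibia. Hspa1a and Hspa1b are near-identical copies that share reads. Ier3, of the same list, moved less, at 622.8, 730.6 and 565.9 RPKM in the mandible, against 426.6, 657.8 and 595.5 RPKM in the tibia. The 7 erythroid markers summed to 2198, 7755 and 20648 RPKM in the mandible, against 5578, 13790 and 42988 RPKM in the tibia, highest in library 3 at each site. The part of either group in the Cyr61 and Piezo1 values was not tested.

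The rest of the pathway was read from 10 lists with 138 genes, of which 128 were tested. These include the 15 dissociation and immediate early genes, which respond to tissue digestion. With site alone limma passed 0 of 128, and 12 had an unadjusted p under 0.05 (8.99% of all genes did). With the dissection as a block 13 passed, 11 higher and 2 lower in the mandible, or 10.2% of those tested against 6.49% of all genes. Of these 13, 5 were dissociation and immediate early genes, all higher in the mandible, among them Hspa1a and Hspa1b, which share reads. The 10.2% includes these 5 and is thus not a share of the YAP/TEAD and mechanosensing genes alone. Quantile normalization in addition to the block left 6 of these 13 past the threshold (F3, Gja1, Hspa1b, Nov, Vgll4 and Zfp36), and without both libraries of dissection 3 and no block 8 of them did.

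YAP/TAZ target genes outside the members had a median log2 fold change of 0.17, against 0.12 for all genes. With the block 1 of 16 tested genes was higher, where 4.44% of all genes were. This was F3, the gene of tissue factor, which starts blood clotting. F3 was at 27.8, 32.9 and 15.7 RPKM in the mandible libraries, against 6.51, 12.4 and 2.53 RPKM in those of the tibia, with no overlap (log2 fold change 1.94, SE 0.55, limma adjusted p = 0.298; SE 0.20 and 0.00468 with the block). The other abundant members did not pass. Ccdc80, a matrix protein gene, was at 207.5 ± 54.8 RPKM in the mandible, against 177.9 ± 37.8 RPKM in the tibia. Nt5e, the ecto-5'-nucleotidase CD73, was at 16.1 ± 4.08 RPKM in the mandible, against 20.6 ± 2.95 RPKM in the tibia (SD, n = 3 each).

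Hippo kinases and scaffolds had none of 16 passing in limma without or with the block, with a median of 0.012. At an unadjusted p under 0.05 were 1 without and 4 with the block, where 8.99% and 26.5% of all genes were. Stk3, the gene of the kinase MST2, was at 13.6, 13.5 and 12.7 RPKM in the mandible, against 10.02, 8.68 and 9.32 RPKM in the tibia. Its sites did not overlap, and it did not pass (log2 fold change 0.49, SE 0.16, limma adjusted p = 0.423; 0.0587 with the block). Rassf1, a scaffold of these kinases, averaged 60.0 ± 3.97 RPKM in the mandible, against 50.7 ± 6.68 RPKM in the tibia. Frmd6, an upstream scaffold, averaged 30.8 ± 13.3 RPKM in the mandible, against 24.6 ± 13.1 RPKM in the tibia (SD, n = 3 each).

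Of 10 tested partners and regulators of YAP and TEAD, 1 was higher with the block, where 4.44% of all genes were. The list median was 0.22. Vgll4, a cofactor that binds TEAD factors and competes with YAP, was at 93.6, 99.0 and 99.6 RPKM in the mandible libraries, against 60.6, 65.1 and 65.4 RPKM in those of the tibia. The sites did not overlap and the spread within a site was small (log2 fold change 0.61, SE 0.18, limma adjusted p = 0.346; SE 0.093 and 0.0179 with the block; 0.46 and 0.0415 with quantile normalization as well). By RPKM, Vgll4 thus stood above Yap1 and above each Tead gene in every library. The angiomotin relative Amotl1 averaged 15.4 ± 3.29 RPKM in the mandible, against 12.0 ± 1.13 RPKM in the tibia (SD, n = 3 each) and did not pass.

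Of 12 tested mechanosensitive channels and connexins, 1 was higher and 1 lower with the block, where 4.44% and 2.05% of all genes were. Trpv4, a calcium channel that answers osmotic and mechanical stimuli, was at 28.2, 34.5 and 15.4 RPKM in the mandible, against 22.0, 23.1 and 8.53 RPKM in the tibia (log2 fold change 0.58, SE 0.46, limma adjusted p = 0.868; 0.0488 with the block, and 0.0856 with quantile normalization as well). The sites overlapped. Gja1, which encodes the main connexin, or gap junction protein, of osteoblasts and osteocytes, was at 443.7, 411.7 and 340.9 RPKM in the mandible, against 648.7, 556.3 and 564.3 RPKM in the tibia. The sites did not overlap (log2 fold change -0.57, SE 0.25, limma adjusted p = 0.599; SE 0.10 and 0.0277 with the block). Tmem63a was at 10.2 ± 0.619 RPKM in the mandible, against 11.3 ± 0.977 RPKM in the tibia (SD, n = 3 each).

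In the lists of the contractile and nuclear machinery limma passed few genes. Of 15 genes of SRF and MRTF factors and their targets, Tagln2 passed with the block, at 274.5 ± 78.2 RPKM in the mandible, against 203.9 ± 65.3 RPKM in the tibia (log2 fold change 0.44, limma adjusted p = 0.852; 0.0435 with the block, 0.214 with quantile normalization as well). With the block 4.44% of all genes passed as higher in the mandible. The median of that list was 0.35, with 14 of 15 above 0, where 8651 of 12752 genes were. Of 9 genes of the lamina and its linker complex none passed without or with the block. At an unadjusted p under 0.05 in limma were 0 without and 2 with the block, where 8.99% and 26.5% of all genes were. Lmna, the gene of A-type lamins, was at 348.7, 337.7 and 114.7 RPKM in the mandible, against 271.7, 260.8 and 98.0 RPKM in the tibia, lowest in library 3 of each site.

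Among the CCN relatives of Ctgf and Cyr61, 1 of 3 tested genes was lower and 1 higher in the mandible with the block. Of all genes, 2.05% were lower and 4.44% higher. Nov, also called Ccn3, was at 0.487, 1.40 and 0.261 RPKM in the mandible libraries, against 8.71, 16.9 and 1.60 RPKM in those of the tibia. The sites did not overlap (log2 fold change -2.63, SE 0.77, limma adjusted p = 0.332; SE 0.35 and 0.0115 with the block). Wisp2, also called Ccn5, was at 29.3, 26.3 and 20.1 RPKM in the mandible, against 20.6, 9.54 and 4.17 RPKM in the tibia (log2 fold change 1.35, SE 0.52, limma adjusted p = 0.505; 0.0442 with the block, 0.0524 with quantile normalization as well). Wisp1, the most abundant, was at 74.9 ± 19.8 RPKM in the mandible, against 59.8 ± 18.4 RPKM in the tibia (SD, n = 3 each) and did not pass.

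Of 9 load-responsive bone genes, 1 was higher with the block, where 4.44% of all genes were. This was Postn, which encodes periostin of the periosteum. It was at 351.5, 395.8 and 238.4 RPKM in the mandible, against 113.0, 257.2 and 149.3 RPKM in the tibia (log2 fold change 0.98, SE 0.38, limma adjusted p = 0.505; 0.0437 with the block, 0.0892 with quantile normalization as well). The list median was -0.026. Spp1, the osteopontin gene, and Igf1 did not pass, at log2 fold changes of 0.46 and -0.026. Of the 15 dissociation and immediate early genes, 5 were higher with the block, where 4.44% of all genes were. These were Fos, Fosb, Zfp36, Hspa1a and Hspa1b, of which the last 2 share reads. With quantile normalization as well, only Zfp36 and Hspa1b of the 5 stayed past the threshold. The list median was 0.50, against 0.12 for all genes. Fos was at 2011, 2349 and 1539 RPKM in the mandible, against 1248, 1361 and 1197 RPKM in the tibia, without overlap (log2 fold change 0.61, limma adjusted p = 0.686; 0.0332 with the block, 0.144 with quantile normalization as well). The part of these genes in the site difference of Cyr61 was not tested.

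**Figure D5:**
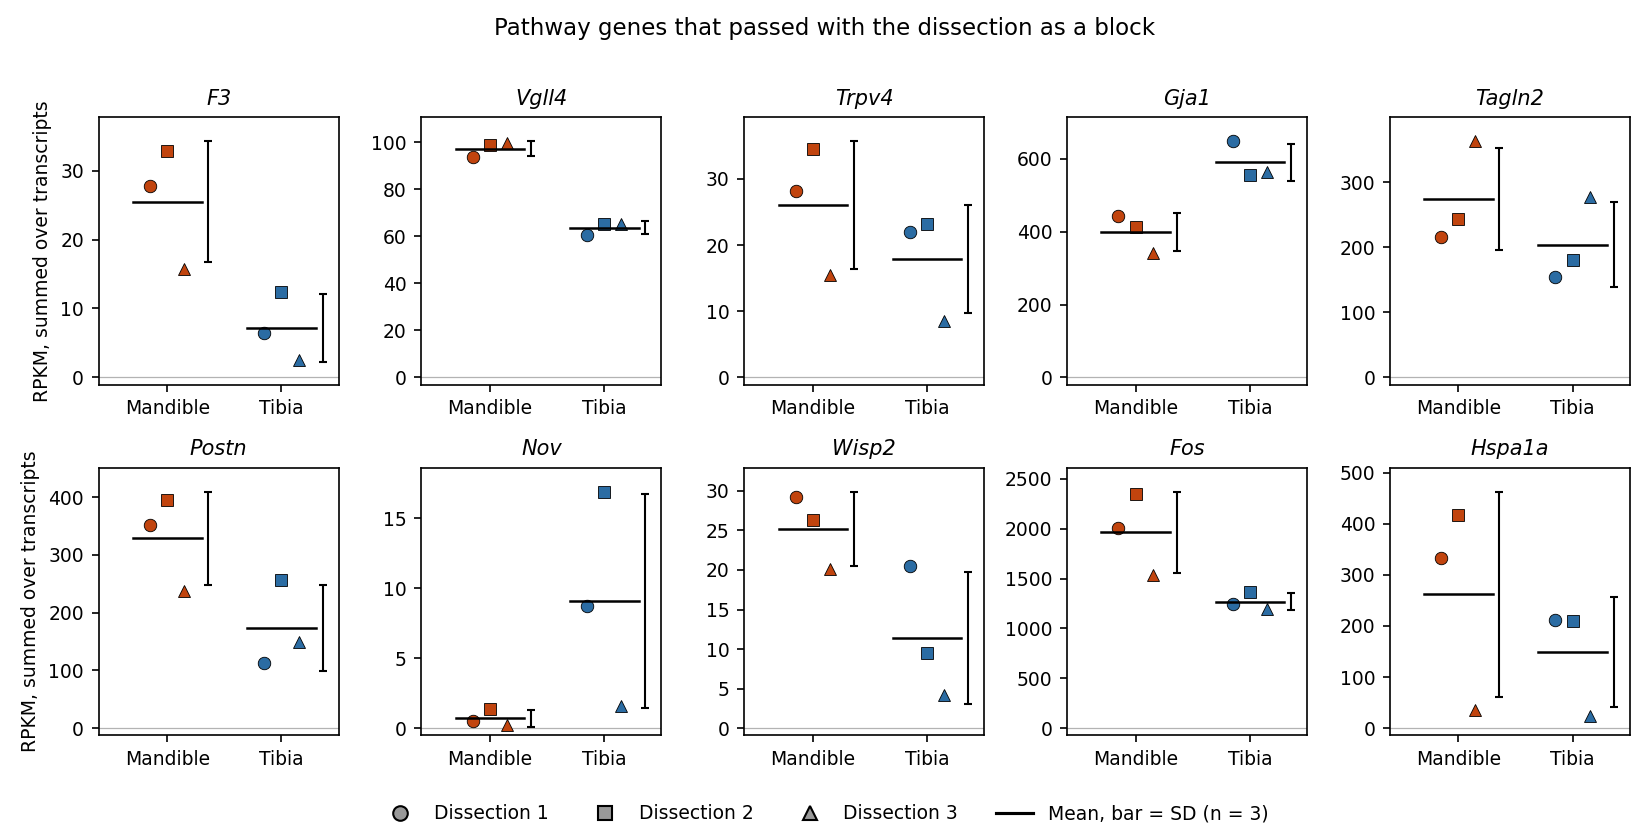
RPKM in each library (vertical axes, linear) of 10 of the 13 pathway genes that passed with the dissection as a block, mandible left and tibia right, with the mean as a line and the SD as a bar (n = 3). Vgll4 lies between 93.6 and 99.6 in the mandible and between 60.6 and 65.4 in the tibia, and Hspa1a drops in dissection 3 at both sites.

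The genes nearest to a member in pattern were taken as those with the smallest root mean square difference of centred log2(RPKM + 0.5) over the 6 libraries, among 6098 genes with a mean of at least 5 RPKM. For Cyr61 they were Cpxm1 (0.058 log2 units), Dgcr6 (0.083) and Bag3 (0.086). For Piezo1 they were Col24a1 (0.090), Plec (0.10) and Mta2 (0.11). Genes nearest to Yap1 were Sil1 (0.025), Tuba1a (0.035) and Gnl2 (0.040), and those nearest to Ctgf were Tbl3, Nrm and Tpp2, at 0.049, 0.053 and 0.056. Cyr61 and Ctgf, both readouts of the same complex, were 0.85 apart on this measure, which put Ctgf at rank 2216 for Cyr61, and Cyr61 at rank 5702 for Ctgf, of 6098. The points share their 6 libraries, so these are descriptions.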

How the data were processed

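RNA sequencing values from 6 libraries, 3 of mandible and 3 of tibia osteoblasts, were used. The authors deposited RPKM for 30198 RefSeq transcripts, per the file headers, which name mm10 and Partek 6.15.1207. CASAVA 1.8.2, TopHat2 2.1.0 and Partek 6.6 are named in the submitters' processing notes. Per the labels' protocols, cDNA was made with a kit for very low RNA input, while the counting of strands is not stated there. Values were summed per gene symbol. Read totals came from the steps of low RPKM values among 13537 single-transcript genes. Of the 821 to 1331 low values of a library, 64.5% to 70.4% lay within 0.05 of a whole read. These were too few for whole reads to be recovered, so no count model was used.

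Genes with a mean of at least 0.5 RPKM were tested on log2(RPKM + 0.5), a scale that understates changes of low genes, with limma 3.58.1 (R 4.3.3, trended eBayes, two-sided), Benjamini-Hochberg over 12752 genes and a threshold of 0.05. The tests were checked on simulated data. Same-numbered libraries share an experiment name in the labels (the third pair by a name of another form), so the dissection was a block in a second fit. The deviations of same-numbered libraries from the site means correlated across genes at 0.594, 0.658 and 0.798. Crossed pairs of dissections 1 and 2 reached 0.55 and 0.524, so the correlations set the third pair apart. The pairing of the first 2 rests on the labels. The fit with the block estimates the same fold change with less residual spread. Alternatives were other pseudocounts, filters, scalings, the highest transcript per gene (by mean over the 6 libraries), and leaving out libraries. Named genes were all members, plus from each list those that passed in either fit and the 3 most abundant; the genes shown in text are a selection of these. The result of 1 of the pathway lists is not reported here. The members and lists were chosen with earlier results of these data known. Gene coordinates and promoters are from RefSeq, GRCm38.p6, the assembly of mm10. Figures were drawn with matplotlib 3.10.9.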

Additional observations from a re-analysis of the deposited data

How the results depend on the processing

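The count of members called was 0 under every alternative run. Of 153 values of the 9 tested members over 17 alternatives, 140 kept their sign. Many of these could not turn, so the count is no measure of stability. The block and the filters leave a fold change as it is. A gene with 1 transcript has the same value with its highest transcript. Over all genes, 124 passed with site alone, 828 with the dissection as a replicate block, 784 with the block and quantile normalization, 714 without both libraries of dissection 3, and 1162 with the block and without those libraries, the last chosen after seeing the data. Leaving out 1 library gave 37 to 151. Pathway genes passing numbered 0 with site alone, 13 with the block, 9 with the block and quantile normalization, 17 without dissection 3, 23 with the block and without dissection 3, and 0 to 1 on leaving out 1 library. Tead1 turned to -0.066 with quantile normalization, with or without the block, and to -0.046 with median-of-ratios scaling. Ctgf turned to -0.091 and -0.088 in the same way. Tead2 turned to 0.27 with its highest transcript, and the Tead1 share of the TEAD pool moved to -7.80 percentage points with the highest transcript per gene. Under the same setting the Tead2 share difference shrank to -0.025 points, against -8.53 with summed transcripts, and the Tead3 share difference was 9.27 points. On leaving out 1 library, Tead1 ran from -0.070 to 0.16, Ctgf from -0.021 to 0.11, Tead2 from -0.48 to 0.10, Piezo1 from -0.48 to 0.21, Cyr61 from -0.067 to 1.08 and the Tead1 share from -2.26 to 3.04 points. The cause of these turns was not tested. The sign of Piezo1 (0.21) and Tead2 (0.018) turned without mandible library 3, and that of Tead2 (0.10) without tibia library 1. Without both libraries of dissection 3 the sign of each was kept, at -0.082 for Piezo1 and -0.28 for Tead2. Beyond the pathway genes given in the report, the block changed no other call on a member. With 3 libraries per site, exact tests of shares could not go below p = 0.1 (0.25 within pairs). The intervals of Cyr61 and Piezo1 were wide with site alone and narrower with the block (SE 0.18 and 0.13). None of these intervals shows that the sites are alike.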

Other observations

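The transcripts behind Tead2 and Wwtr1 also set dissection 3 apart. Of the Tead2 RPKM, transcript NM_001285500 took 5.16%, 5.18% and 41.4% in the mandible libraries, against 8.20%, 4.29% and 86.4% in those of the tibia. Transcript NM_011565 took 69.0%, 75.7% and 45.6% in the mandible, against 73.4%, 74.6% and 9.93% in the tibia. Of the Wwtr1 RPKM, NM_001168281 took 17.1%, 17.0% and 42.4% in the mandible, against 14.0%, 14.0% and 47.9% in the tibia. For Yap1, by contrast, NM_009534 stayed at 66.2% to 72.0% in the mandible, against 63.1% to 69.9% in the tibia. Transcripts of 1 gene overlap, so these shares are estimates made before deposit, and they carry no test.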
